A study of Rattus norvegicus with 16 samples.

Results

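The genes described here encode the nuclear subunits of oxidative phosphorylation, with cytochrome c and the complex I assembly factors, measured in kidney cortex of male rats. Members were the probes whose gene name on the array starts with Nduf, Uqcr, Atp5, Cox4, Cox5, Cox6, Cox7 or Cox8, or is Sdha, Sdhb, Sdhc, Sdhd, Cycs or Cyc1. The rule uses names and no measured value. It found 142 probes for 98 genes, of which 94 genes were tested among 16007 genes in all. They comprised 37 subunits of complex I, 8 of its assembly factors (Ndufaf), 4 subunits of complex II, 9 of complex III, 17 genes of complex IV, 17 of complex V, cytochrome c and the pseudogene Cox6c-ps1. Ndufa4 was counted with complex IV, of which it is a subunit despite its name. The other 4 members were not well above background on all arrays of any group: Ndufs4 was so on 4 arrays, Ndufa4l2 on 1, and Cox7b2 and Cox8c on 0.

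Oxidative phosphorylation couples the oxidation of NADH and succinate to the making of ATP across the inner mitochondrial membrane. Complex I (NADH dehydrogenase) and complex II (succinate dehydrogenase) pass electrons to ubiquinone, complex III passes them to cytochrome c, complex IV (cytochrome c oxidase) passes them to oxygen, and complex V (ATP synthase) uses the resulting proton gradient. Most subunits are nuclear genes; a small set is carried by mitochondrial DNA, and the cells of the proximal tubule, which fill much of the cortex, are rich in mitochondria.

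Total RNA of kidney cortex from Jcl:SD rats (a Sprague-Dawley stock) was labelled with Cy3 and hybridised to single-colour Agilent arrays. The wild-type rats gave 2 untreated arrays, 3 arrays after 1 week and 3 after 3 weeks of Fe-NTA (ferric nitrilotriacetate), an iron chelate known to cause oxidative injury of the renal tubule. Rats heterozygous for BRCA1 (BRCA1+/-), a DNA repair gene, gave the same numbers, 16 arrays in 6 groups. Injections were intraperitoneal and began at 4 weeks of age, with 5 mg iron/kg at the first 2 injections, 7 at the last 3 of week 1, and 10 mg iron/kg on 5 occasions a week for 2 more weeks; cortex was taken 48 h after the last. For the untreated rats the labels state neither age nor vehicle nor when tissue was taken, so age and treatment cannot be told apart, and 3 weeks against 1 week differs in time, age and dose together. They do not say whether each array came from a separate rat, nor how the BRCA1 allele was made or how the arrayed animals were chosen from the 17 wild-type and 18 BRCA1+/- rats of the protocol; p-values measure the spread between arrays.

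A value below is the scaled log2 signal, in which each array's 75th percentile was set to 0, and a difference is between group means of it. Probes differ in brightness, so levels are not compared between genes. The 75th percentile of the processed signal was 20.1 to 24.98 on the wild-type control arrays and 25.18 to 78.5 on the others. A called gene has an adjusted p under 0.05 in limma. Between 32.7% and 60.4% of probes were well above background on an array, and 90 of the 94 genes tested were so on all 16 arrays. Replicate 3 of the wild-type 1-week group stood apart from its group (Pearson r over all genes 0.905 to 0.908, against 0.964 to 0.981 for all other pairs within a group). All 14 proximal tubule markers and 9 of the 10 markers of the thick limb and distal tubule were tested. In bulk tissue, fewer cells of a type and less RNA per cell cannot be told apart.

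Promoter sequences are shown for 6 members whose values carry the results below: the carrier Cycs and the complex I, III and V subunits Ndufa1, Uqcr10 and Atp5po, which had the largest decreases of their complexes in wild-type cortex after 1 week, and the muscle-type complex IV isoforms Cox6a2 and Cox7a1, which went opposite ways. Each is the 200 bases before the start site of the gene, read 5′ to 3′ on the strand of the gene, from RefSeq on the rat build GRCr8, with motif matches in capitals.
Cycs, chr4:80984768-80984967, minus strand: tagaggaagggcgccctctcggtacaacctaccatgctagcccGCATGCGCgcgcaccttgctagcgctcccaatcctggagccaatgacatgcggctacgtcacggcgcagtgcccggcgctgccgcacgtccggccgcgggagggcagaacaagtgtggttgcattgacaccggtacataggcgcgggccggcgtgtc
Ndufa1, chrX:121293556-121293755, minus strand: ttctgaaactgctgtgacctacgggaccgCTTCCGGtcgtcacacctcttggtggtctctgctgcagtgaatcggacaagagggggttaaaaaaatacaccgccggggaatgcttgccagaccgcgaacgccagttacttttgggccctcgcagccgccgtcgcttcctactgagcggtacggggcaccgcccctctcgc
Uqcr10, chr14:83791915-83792114, minus strand: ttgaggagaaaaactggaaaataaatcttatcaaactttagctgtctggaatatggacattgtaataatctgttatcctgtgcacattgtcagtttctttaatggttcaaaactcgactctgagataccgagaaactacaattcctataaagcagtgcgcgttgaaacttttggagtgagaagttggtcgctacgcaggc
Atp5po, chr11:44657484-44657683, minus strand: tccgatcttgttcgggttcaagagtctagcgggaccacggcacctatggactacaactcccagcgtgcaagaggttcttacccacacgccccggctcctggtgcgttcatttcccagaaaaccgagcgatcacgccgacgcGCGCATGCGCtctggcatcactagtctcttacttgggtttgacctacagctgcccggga
Cox6a2, chr1:192219717-192219916, minus strand: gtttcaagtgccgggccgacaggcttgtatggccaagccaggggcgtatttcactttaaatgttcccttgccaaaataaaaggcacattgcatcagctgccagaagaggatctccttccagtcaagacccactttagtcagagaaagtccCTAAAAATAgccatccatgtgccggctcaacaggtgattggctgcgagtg
Cox7a1, chr1:94569016-94569215, plus strand: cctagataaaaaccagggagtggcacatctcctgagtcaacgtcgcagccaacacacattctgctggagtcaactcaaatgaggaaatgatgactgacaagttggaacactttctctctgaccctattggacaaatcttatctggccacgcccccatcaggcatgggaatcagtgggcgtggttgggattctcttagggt

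The 4 motifs were searched on both strands from 250 bases before to 50 after the start. They were the NRF1 site GCGCATGC, the ETS site CCGGAAG that GABPA recognises, the site TCAAGGTCA of the estrogen-related receptors and the MEF2 site CTAAAAATA, the last chosen after the Cox6a2 sequence had been read. The capitals mark an NRF1 match in Cycs, a pair of overlapping NRF1 matches on opposite strands in Atp5po, an ETS match on the opposite strand in Ndufa1 and a MEF2 match 50 bases before the start of Cox6a2. The sequences of Uqcr10 and Cox7a1 hold none of these letters. Of the 85 members with a promoter window, 12 (14.1%) held the NRF1 letters, against 2.66% of all 27457 windows and 4.72% of the 9761 windows of tested genes. The ETS letters were in 23 members (27.1%), against 9.22% of all windows and 16.6% of those of tested genes. The receptor letters were in the windows of Sdhd and Atp5mc3 (2.35%, against 0.412% of all windows), and the MEF2 letters in that of Cox6a2 alone among the members (0.517% of all windows).

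Which subunit genes changed in wild-type cortex after 1 week of Fe-NTA was the first question. Of the 94 members, 66 fell and 1 rose, against 14.3% of all genes called lower and 12.8% called higher. With normexp background correction (offset 50) the split was 7 lower and 2 higher, against 738 and 956 of all 16007 genes. The median difference of the members was -1.08, against -0.02 for all genes, and stayed below 0 at -0.57 with that correction. Every treated array was below every control array for 80 of the 94, against 24.7% of all genes. The members are bright on this array: 82 lay among the 4002 genes with the highest mean signal, and the median difference was -0.18 over those 4002 genes and -1.13 over the 82 members. Called members fell in every complex: 30 of 37 in complex I, 3 of 4 in complex II, 6 of 9 in complex III, 10 of 17 in complex IV and 12 of 17 in complex V, with 3 of 8 assembly factors. The arrays lay on 2 slides, and within them the member median was -1.26 and -0.91.

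**Figure D1:**
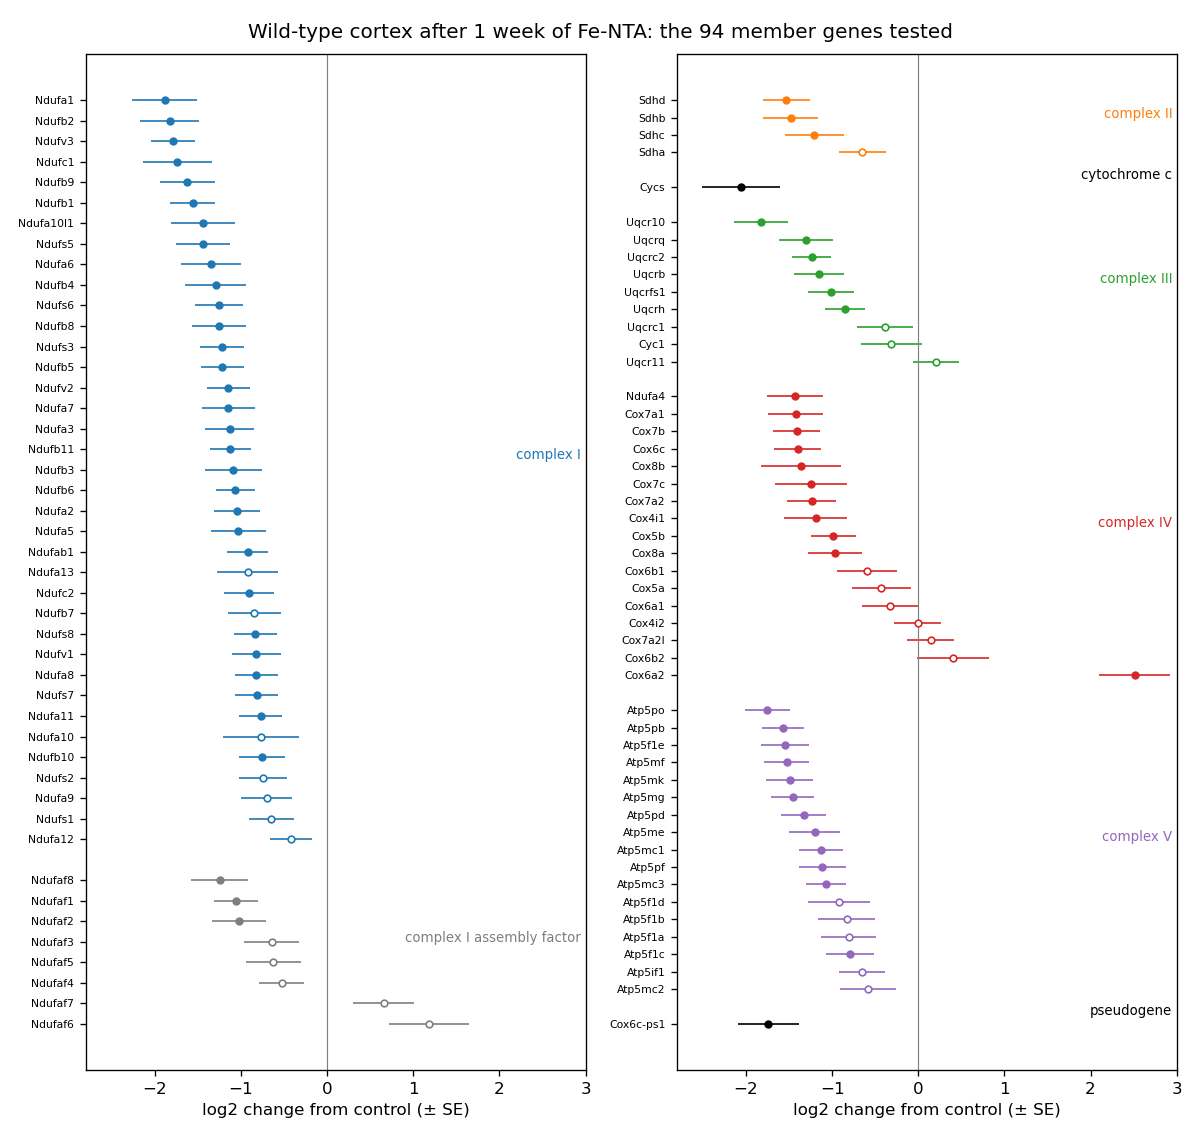
Log2 change from control, with its standard error, for the 94 tested members in wild-type cortex after 1 week (3 arrays against 2); rows are genes grouped by complex, and filled circles are genes called at an adjusted p under 0.05. Nearly all points lie left of 0, from -2.06 for Cycs upward, and Cox6a2 is the filled point on the right, drawn at 2.51. Its control signals were below background, so its size is a bound (at least 4.03-fold higher). The median of -1.08 was -0.57 with normexp (offset 50).

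Cycs encodes cytochrome c, which carries electrons from complex III to complex IV and can trigger apoptosis when released. Its scaled log2 signal was 8.02 and 8.03 on the wild-type control arrays, 6.48, 6.60 and 4.82 after 1 week and 6.78, 6.76 and 6.30 after 3 weeks. All 6 treated wild-type arrays lay below both controls, and 1 of the 1-week arrays lay far below the rest. The difference at 1 week was -2.06 ± 0.45 (SE, adjusted p = 0.0035), a signal 4.16-fold lower, and at 3 weeks -1.41 ± 0.45 (SE, adjusted p = 0.049). In the heterozygous rats the controls had 7.30 and 7.89, the 1-week arrays 6.52, 6.30 and 6.55 and the 3-week arrays 6.10, 7.12 and 7.00. These treated arrays also lay below both of their controls, but neither difference was called, at -1.14 ± 0.45 (SE, adjusted p = 0.14) and -0.85 ± 0.45 (SE, adjusted p = 0.2). The second passing probe of Cycs had differences of -1.35, -1.42, -0.81 and -0.98 in the same order.

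In complex I, which oxidises NADH, all 37 subunits had values below 0 at 1 week in the wild type, with a median of -1.09. Ndufa1, a small accessory subunit of the membrane arm, had 7.90 and 7.80 on the control arrays and 6.51, 6.40 and 4.97 on the 1-week arrays. The groups did not overlap, and the gene fell by 3.7-fold, a log2 difference of -1.89 ± 0.37 (SE, adjusted p = 0.0018). Ndufb2, another accessory subunit of that arm, had 7.44 and 7.39 in controls and 5.97, 6.10 and 4.69 at 1 week, and fell by 3.55-fold (-1.83 ± 0.34 (SE, adjusted p = 0.0012)). Ndufv3, an accessory subunit next to the NADH-binding site, had 4.55 and 4.62 in controls and 2.84, 2.92 and 2.62 at 1 week, with close values within each group and -1.79 ± 0.26 (SE, adjusted p = 0.00016). The smallest difference was that of Ndufa12, an accessory subunit of the peripheral arm, at -0.42 ± 0.24 (SE, adjusted p = 0.23). Next to it was Ndufs1, the largest iron-sulfur protein of the catalytic core, at -0.65 ± 0.26 (SE, adjusted p = 0.077); neither was called.

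The 7 nuclear core subunits of complex I, which hold the flavin and the iron-sulfur clusters, had a median of -0.82 with 5 lower, and the 30 accessory subunits a median of -1.13 with 25 lower. These medians are descriptions, and the difference between the sets was not tested. Ndufa10 and Ndufa10l1 have closely similar sequences and their signals may be shared. For Ndufa13 and Ndufa8, both accessory subunits, the probes of the gene differed in sign in at least 1 comparison, though at 1 week in the wild type all were below 0 (-0.92 and -1.18 for Ndufa13, -0.82 and -0.42 for Ndufa8).

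Complex II, which also belongs to the citric acid cycle, had 3 of its 4 subunits called. Sdhd, a membrane anchor, had 7.08 and 7.16 on the control arrays and 5.81, 5.79 and 5.18 on the 1-week arrays, a difference of -1.53 ± 0.27 (SE, adjusted p = 0.00085). Sdhb, the iron-sulfur subunit, had 4.44 and 4.57 in controls and 3.52, 3.18 and 2.37 at 1 week, a difference of -1.48 ± 0.32 (SE, adjusted p = 0.003). Sdhc, the other anchor, fell with -1.20 ± 0.34 (SE, adjusted p = 0.017). For these genes every 1-week array was below both controls. Sdha, the flavoprotein that oxidises succinate, had 3.81 and 3.65 in controls and 3.01, 2.71 and 3.52 at 1 week. Its groups did not overlap either, but the difference was not called (-0.65 ± 0.27 (SE, adjusted p = 0.091)).

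Complex III had a median of -1.01 at 1 week. Uqcr10, a small subunit near cytochrome c1, had 9.38 and 9.71 on the control arrays and 8.07, 7.97 and 7.11 on the 1-week arrays, with no overlap, and fell by 3.55-fold (-1.83 ± 0.31 (SE, adjusted p = 0.00056)). Uqcrq, a small ubiquinone-binding subunit, fell with -1.31 ± 0.31 (SE, adjusted p = 0.0061), and Uqcrc2, a core protein of the matrix side, with -1.24 ± 0.22 (SE, adjusted p = 0.00092). Cyc1, the cytochrome c1 that hands electrons to cytochrome c, was not called and had 7.38 and 7.19 in controls and 7.43, 7.15 and 6.33 at 1 week, overlapping groups with a difference of -0.31 ± 0.35 (SE, adjusted p = 0.56). Its second probe gave -0.38 there, and the probes differed in sign at 3 weeks in the heterozygous rats. The brightest probe of Uqcr11, a further small subunit, had 0.21 ± 0.27 (SE, adjusted p = 0.61), while its other passing probe had -1.09, so the array does not settle its direction.

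In complex IV, the 10 called lower included both ubiquitous and tissue-restricted isoforms. Cox4i1, the common form of the largest nuclear subunit, had 8.67 and 8.96 on the control arrays and 8.21, 8.02 and 6.64 on the 1-week arrays. All 1-week arrays were below both controls, replicate 3 by the most, with -1.19 ± 0.37 (SE, adjusted p = 0.025). Ndufa4, a peripheral subunit, fell with -1.43 ± 0.32 (SE, adjusted p = 0.0043). The isoform Cox4i2, known from lung and from low oxygen, had 3.66 and 3.41 in controls and 3.46, 3.53 and 3.59 at 1 week, all within the range of the controls, and a difference of -0.01 ± 0.28 (SE, adjusted p = 0.99). Of the Cox8 genes, Cox8a fell with -0.97 ± 0.32 (SE, adjusted p = 0.034) and the muscle-type Cox8b with -1.36 ± 0.47 (SE, adjusted p = 0.041). Cox8b was dim: of the 3 arrays at 1 week, 1 was well above background. Cox7a2, the common Cox7a form, fell with -1.24 ± 0.29 (SE, adjusted p = 0.0052). Cox7a2l, a related protein that joins complexes into supercomplexes, had 0.14 ± 0.27 (SE, adjusted p = 0.74). Neither the common Cox6b1 nor the testis form Cox6b2 was called, at -0.60 ± 0.35 (SE, adjusted p = 0.23) and 0.40 ± 0.42 (SE, adjusted p = 0.52), and the second Cox6b1 probe had -1.13.

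The heart and muscle isoform Cox6a2, a small subunit of complex IV, was the member called higher in 3 of the 4 treatment comparisons. Its scaled log2 signal was -1.44 and -2.29 on the wild-type control arrays, 0.82, 0.70 and 0.43 at 1 week and 0.30, -0.02 and -0.37 at 3 weeks. In the heterozygous rats it was -2.87 and -2.31 in controls, -0.29, -1.21 and 0.32 at 1 week and -1.25, -1.94 and -1.22 at 3 weeks. The control and treated groups did not overlap in either genotype, and neither of its probes was well above background on any control array. The probe tested was so on all 12 treated arrays, so the gene passed the filter on dim probes through the groups where it is high, and its adjusted p-values rest on control signals below background. The control signal is therefore a bound: the mean of the treated arrays was at least 4.03-fold higher at 1 week in the wild type (adjusted p = 0.00043) and at least 2.52-fold at 3 weeks (adjusted p = 0.0087), taken against the higher of the lowest signal well above background and the probe's own signal on each control array. It was at least 3.97-fold higher at 1 week in the heterozygous rats (adjusted p = 0.0052), while the bound of 1.88-fold at 3 weeks was not called (adjusted p = 0.076). Where dim probes took the detection limit as their value, the 3-week wild-type and 1-week heterozygous calls were lost (adjusted p = 0.057 and 0.21), as with normexp (adjusted p = 0.23 and 0.097). Without replicate 2 of the wild-type controls the 3-week call was lost (adjusted p = 0.14), and without replicate 1 of the heterozygous controls that at 1 week (adjusted p = 0.081). Its liver-type counterpart Cox6a1 had differences of -0.32, 0.31, 0.18 and 0.36 in the 4 comparisons, none of them called.

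Of the 7 markers of skeletal and heart muscle, Myh7, Tnni3, Ckm, Actn2 and Myl2 were well above background on at most 1 of the 16 arrays. The other 2 were tested: Tnnt2, a troponin also expressed outside muscle, rose in the 3-week groups (1.30 ± 0.37 (SE, adjusted p = 0.031) in wild-type and 2.43 ± 0.37 (SE, adjusted p = 0.00077) in heterozygous rats), and the oxygen carrier Mb was not called in any of the 4. Their summed linear level, relative to the 75th percentile of each array, was 2.71 to 2.74 in wild-type controls and 3.05 to 3.84 at 1 week. At 3 weeks it was 2.83 to 4.34 there. It was 2.91 to 3.15 in heterozygous controls, 2.51 to 3.72 at 1 week and 3.56 to 4.76 at 3 weeks, the last wholly above the controls. Their part in the values of Cox6a2 was not tested.

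Cox7a1, the heart and muscle Cox7a form, fell in 3 comparisons. It had 0.77 and 1.17 on the wild-type control arrays, -0.64, -0.19 and -0.54 at 1 week and -0.10, 0.45 and 0.60 at 3 weeks. In the heterozygous rats it had 1.32 and 0.70 in controls, -0.77, -0.13 and 0.11 at 1 week and -0.28, -0.02 and 0.08 at 3 weeks. All treated arrays were below the controls of their genotype. The differences were -1.42 ± 0.32 (SE, adjusted p = 0.0041) at 1 week in the wild type, -1.27 ± 0.32 (SE, adjusted p = 0.026) at 1 week and -1.08 ± 0.32 (SE, adjusted p = 0.033) at 3 weeks in the heterozygous rats, and -0.65 ± 0.32 (SE, adjusted p = 0.19) at 3 weeks in the wild type, which was not called. The wild-type call ended with normexp (adjusted p = 0.071) or without replicate 2 of the wild-type controls (adjusted p = 0.062), and leaving out replicate 1 of the heterozygous controls or replicate 1 of their 1-week arrays ended the 1-week call (adjusted p = 0.26 and 0.083). The heterozygous 3-week call was lost when any 1 of its 5 arrays was left out (adjusted p 0.057 to 0.26).

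**Figure D2:**
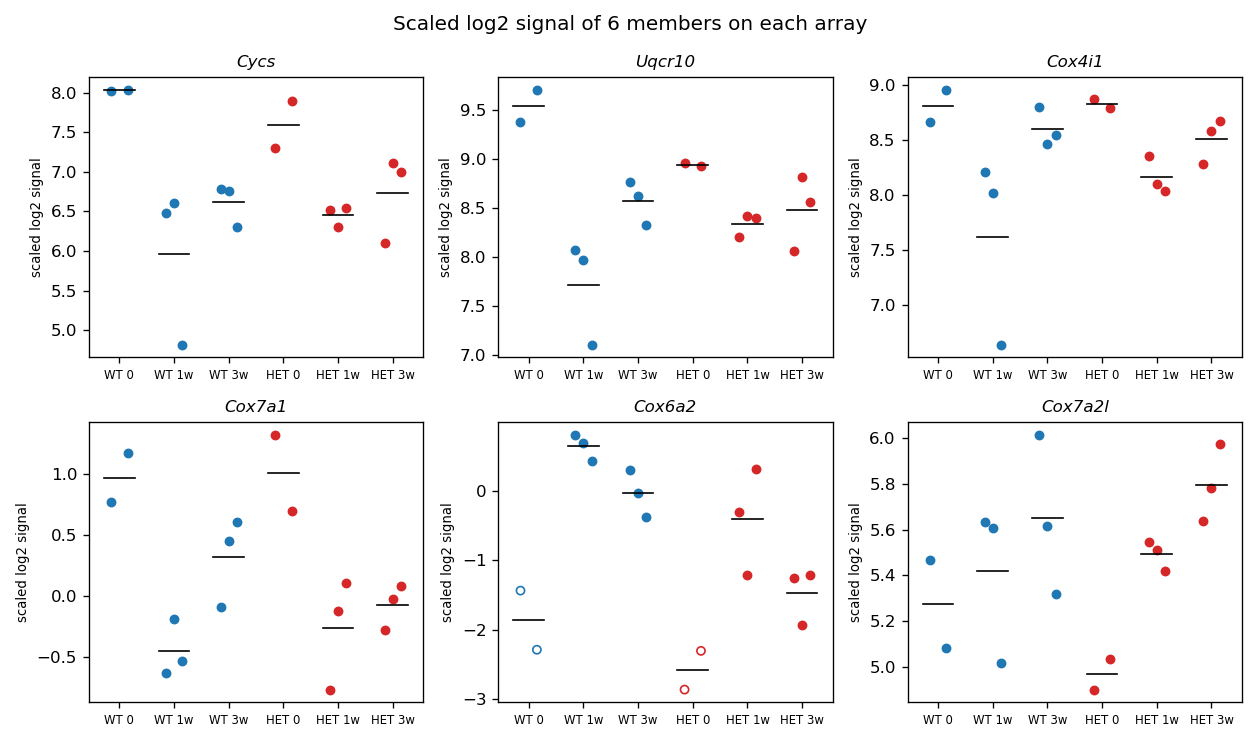
Scaled log2 signal of 6 members on each of the 16 arrays, with group means as bars; WT and HET are wild-type and heterozygous, 0 marks untreated controls and 1w and 3w the weeks of Fe-NTA, and open circles are arrays where the probe was not well above background. Cycs, Uqcr10, Cox4i1 and Cox7a1 were lowest in the wild type at 1 week, Cox6a2 was highest there and dim in all 4 controls, and the Cox7a2l groups overlap in the wild type.

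In complex V, 10 of the 12 genes called lower belonged to the peripheral stalk or the membrane part, the c-ring included. All 4 subunits of the peripheral stalk fell, with a median of -1.45, and all 4 of the other membrane subunits, with a median of -1.47. Of the 5 subunits of the catalytic F1 head and central stalk 2 fell, with a median of -0.83, and of the 3 c-ring genes 2 fell. The differences between these sets were not tested. Atp5po, the stalk protein OSCP that ties the head to the stalk, had 8.24 and 8.45 on the control arrays and 6.81, 6.90 and 6.06 on the 1-week arrays, a 3.37-fold lower signal with no overlap (-1.75 ± 0.26 (SE, adjusted p = 0.00023)). Atp5pb, the b subunit of the stalk, had 5.41 and 5.60 in controls and 4.06, 3.99 and 3.77 at 1 week, again with no overlap (-1.57 ± 0.24 (SE, adjusted p = 0.0003)). Atp5f1e, the epsilon subunit of the central stalk, fell with -1.55 ± 0.28 (SE, adjusted p = 0.00091). The c-ring genes Atp5mc1, Atp5mc2 and Atp5mc3 encode the same mature protein and may share signal: Atp5mc1 had -1.13 ± 0.26 (SE, adjusted p = 0.0047), Atp5mc3 -1.07 ± 0.24 (SE, adjusted p = 0.0037) and Atp5mc2 -0.58 ± 0.33 (SE, adjusted p = 0.21). The last of these has 4 probes, from -0.84 to -0.49 at 1 week in the wild type. Atp5if1, which inhibits ATP hydrolysis by the enzyme, was not called (-0.66 ± 0.27 (SE, adjusted p = 0.084)).

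The 8 complex I assembly factors, which build the enzyme but are not part of it, had a median of -0.63 in wild-type cortex at 1 week and -0.35 without replicate 3. Ndufaf8 had 5.74 and 5.68 in controls and 4.91, 4.82 and 3.65 at 1 week, with no overlap and -1.25 ± 0.33 (SE, adjusted p = 0.011). Ndufaf1, which joins early membrane-arm intermediates, fell with -1.06 ± 0.25 (SE, adjusted p = 0.0064). Ndufaf6 had the highest value, 1.18 ± 0.46 (SE, adjusted p = 0.072), with 1.61 and 0.64 in controls and 2.81, 2.58 and 1.54 at 1 week, overlapping groups. Ndufaf5 and Ndufaf4 were not called, at -0.62 ± 0.32 (SE, adjusted p = 0.17) and -0.53 ± 0.26 (SE, adjusted p = 0.16), and the second passing probe of Ndufaf4 had 0.32.

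**Figure D3:**
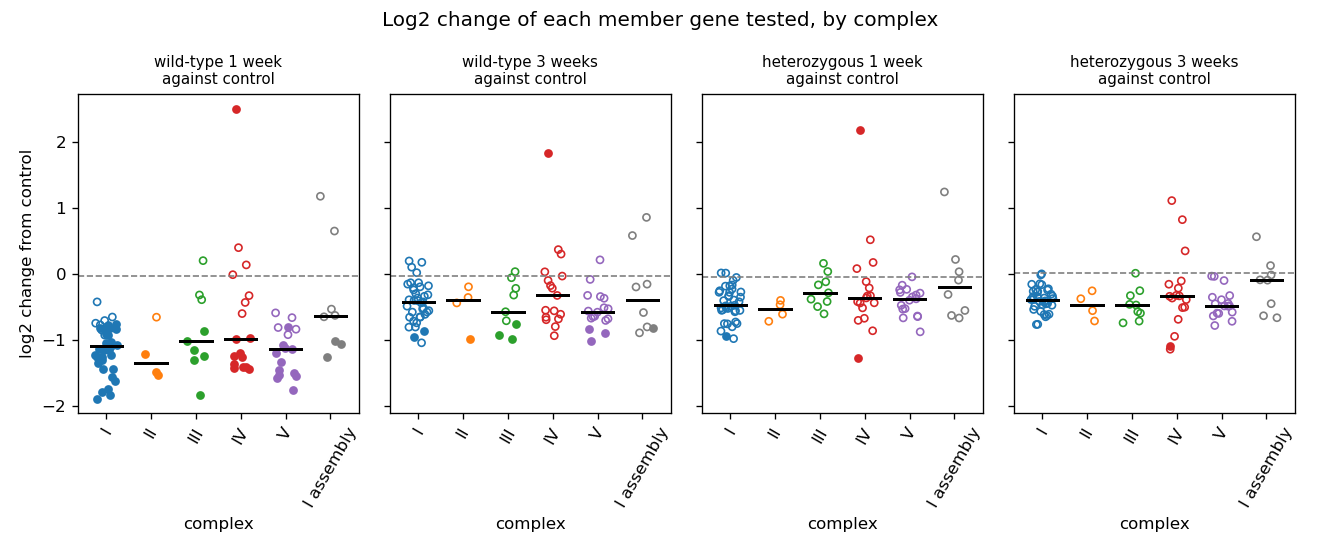
Log2 change from control of each tested member by complex in the 4 treatment comparisons; points are genes, filled where called, bars are medians and the dashed line is the median of all genes. Complexes I to V had medians of -1.34 to -0.99 in the wild type at 1 week and -0.57 to -0.32 at 3 weeks, where normexp (offset 50) gave 0.07 to 0.35, and the filled point above 1.5 in 3 panels is Cox6a2.

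Compared by complex, the medians at 1 week in the wild type were -1.09, -1.34, -1.01, -0.99 and -1.13 for complexes I to V. The spread of a complex median between arrays of a group was 0.17 to 0.24 (SD pooled over all 6 groups). The wild-type 1-week arrays spread widely. Their median deviations from the mean over all arrays were -1.10 to -0.28 for complex I and -1.22 to -0.37 for complex II. They were -0.78 to -0.27 for III, -0.99 to -0.27 for IV and -0.96 to -0.42 for V. No test was made between complexes.

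The wild-type counts rested on both control arrays. Without control replicate 1 the members called were 43, and without control replicate 2 they were 31; without replicate 3 of the 1-week group they were 69, with a median of -0.89. With a fit of only the 2 groups compared, 8 were called lower and 1 higher. The share of all genes called in these fits is not given here, so the member counts are not set against it.

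After 3 weeks in the wild type, 12 members fell and 1, Cox6a2, rose, against 5.52% of all genes called lower and 8.72% called higher. The median of the members was -0.51, but 0.16 with normexp (offset 50). There the split was 0 lower and 1 higher, against 216 and 608 of all 16007 genes. The 1 called higher there was not Cox6a2, whose call was lost with that correction. The member median was -0.27 with quantile normalization and -0.31 with normexp without an offset. At an unadjusted p under 0.05 there were 31 members, against 4767 of all 16007 genes, and the member median was -0.49 and -0.48 within the slides. Every treated array was below every control array for 65 members, against 28.9% of all genes. Those called lower were Ndufb1 and Ndufv3 of complex I, Sdhd of complex II, Uqcr10, Uqcrc2 and the Rieske protein Uqcrfs1 of complex III, Atp5mf, Atp5pb and Atp5po of complex V, the factor Ndufaf1 and Cox6c-ps1, together with Cycs. Complex IV had none called lower. Atp5mf, a membrane subunit of the synthase, had the values 5.58 and 5.69 in controls and 4.70, 4.71 and 4.48 at 3 weeks, with no overlap (-1.01 ± 0.26 (SE, adjusted p = 0.018)). Sdhd had 6.26, 6.19 and 5.98 at 3 weeks, all below its controls (-0.98 ± 0.27 (SE, adjusted p = 0.028)), and Ndufv3 had 3.72, 3.72 and 3.47 (-0.95 ± 0.26 (SE, adjusted p = 0.023)). The pseudogene Cox6c-ps1, whose probe may also read Cox6c, fell with -1.28 ± 0.35 (SE, adjusted p = 0.026). Cox4i1, by contrast, had 8.80, 8.47 and 8.55 at 3 weeks, overlapping its controls (-0.21 ± 0.37 (SE, adjusted p = 0.75)). The called decreases did not hold without either control replicate, which leaves 1 control array. The member median was then -0.54 without control replicate 1 and -0.44 without control replicate 2. Without 3-week replicate 1 the split was 4 lower and 1 higher, and without replicate 2 it was 1 and 1. Without 3-week replicate 3 it was 0 lower and 1 higher.

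Set directly against 1 week, the 3-week wild-type arrays were higher in 14 members and lower in 0, against 5.54% of all genes called higher and 2.78% lower. The median of the members was 0.63 (0.77 and 0.39 within the slides), and 57 had an unadjusted p under 0.05, against 3773 of all 16007 genes. The 14 were Ndufa3, Ndufb9, Ndufb11, Ndufs3, Ndufs6, Ndufs7, Ndufv1 and Ndufv3 of complex I, Sdhb, Cox5b, and Atp5f1d, Atp5f1e, Atp5mg and Atp5po of complex V. Complex III had none called and a median of 0.45, against 0.63 to 0.70 for the other complexes. Sdhb rose from the 1-week values above to 4.17, 4.19 and 4.10, all above every 1-week array (1.13 ± 0.28 (SE, adjusted p = 0.023)). Atp5f1e, which had 7.67, 7.68 and 6.78 at 1 week, had 8.31, 8.49 and 8.42 at 3 weeks (1.03 ± 0.25 (SE, adjusted p = 0.02)), and Ndufs7, a core iron-sulfur subunit near the quinone site, went from 4.61, 4.50 and 3.93 to 5.25, 5.40 and 5.38 (1.00 ± 0.23 (SE, adjusted p = 0.014)). For each of these genes the groups did not overlap. The number called was 4 without 1-week replicate 3, 30 without 1-week replicate 1, and 4, 0 and 1 without replicates 1, 2 and 3 of the 3-week group. In the heterozygous rats 0 members were called between 3 weeks and 1 week in limma (0.187% of all genes called higher, 0.119% lower), and the member median was 0.01. At an unadjusted p under 0.05 there was 1 member, against 1873 of all 16007 genes.

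**Figure D4:**
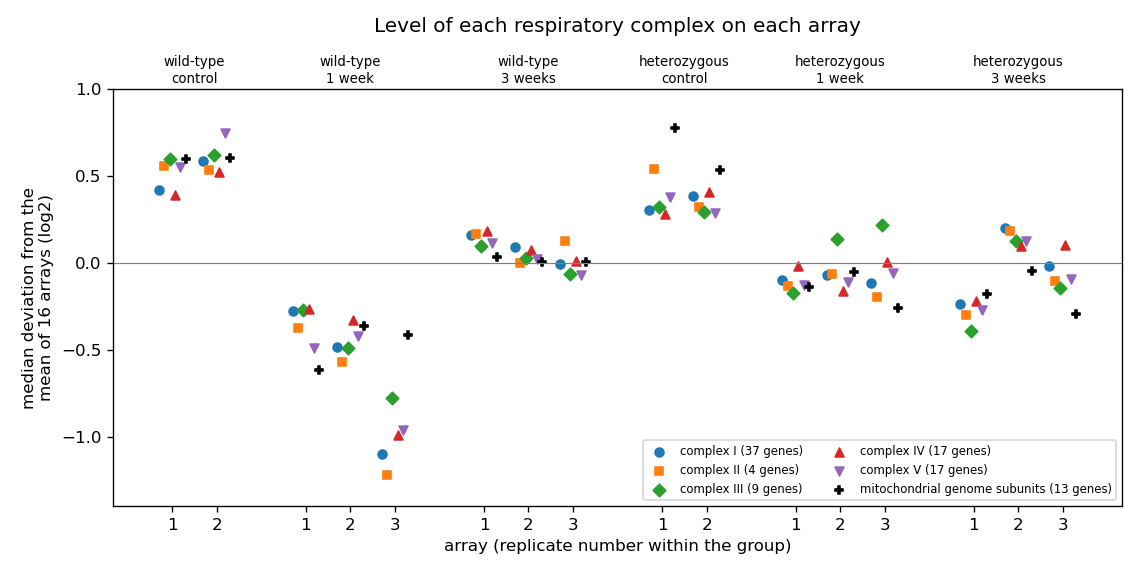
Median deviation of each complex's genes from their mean over the 16 arrays (log2), by array, with the 13 subunits carried by mitochondrial DNA. Medians over all members, not drawn, were 0.46 and 0.58 on the wild-type controls and -0.27, -0.37 and -1.06 at 1 week. The heterozygous controls were at 0.33 and 0.37, and the other groups lay between. That order did not hold for every set drawn: complex III was at -0.39 on heterozygous 3-week replicate 1 and -0.27 on wild-type 1-week replicate 1. The 3-week wild-type arrays lay below their controls. Normexp (offset 50), not drawn, turned that difference for the members.

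In heterozygous rats after 1 week, 2 members fell and 1 rose, against 3.2% of all genes called lower and 4.28% higher. Those were Ndufv3, Cox7a1 and Cox6a2. With normexp (offset 50) the split was 1 lower and 0 higher, against 261 and 176 of all 16007 genes. With quantile normalization it was 1 and 1, against 459 and 763 of all genes, with a member median of -0.17. The member median was -0.39 (-0.44 and -0.39 within the slides). At an unadjusted p under 0.05 there were 18 members, against 3661 of all 16007 genes. Every treated array was below every control array for 61 members, against 23.7% of all genes. Ndufv3 had 4.38 and 4.34 in controls and 3.19, 3.71 and 3.37 at 1 week, with no overlap (-0.94 ± 0.26 (SE, adjusted p = 0.038)). The call held without 1-week replicate 2 and was lost without each of the other 4 arrays (adjusted p 0.11 to 0.21). Uqcr10 had 8.96 and 8.93 in controls and 8.20, 8.43 and 8.40 at 1 week, also without overlap but not called (-0.60 ± 0.31 (SE, adjusted p = 0.27)). The medians of complexes I to V were -0.47, -0.53, -0.28, -0.36 and -0.37. Without replicate 1 of the heterozygous controls 0 members were called, and without replicate 1 of the 1-week arrays 1.

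After 3 weeks in heterozygous rats, Cox7a1 was the 1 member called lower and 0 were called higher, against 6.52% and 9.35% of all genes. The split was 8 lower and 2 higher with the mean of all probes of a gene, against 1189 and 1594 of all 16007 genes. Where dim probes took the detection limit as their value it was 8 and 1, against 999 and 1192 of all genes. In a fit of only the groups compared it was 3 and 2. The member median was -0.38 (-0.32 and -0.43 within the slides, -0.23 with normexp at offset 50), and 17 members had an unadjusted p under 0.05, against 5356 of all 16007 genes. Every treated array was below every control array for 57 members, against 28.9% of all genes. Complexes I to V had medians of -0.38, -0.46, -0.47, -0.33 and -0.48. Cox7a2l just missed the threshold: it had 4.90 and 5.04 in controls and 5.64, 5.78 and 5.97 at 3 weeks, with no overlap and a difference of 0.83 ± 0.27 (SE, adjusted p = 0.0503). Cycs had the lowest 3-week array at 6.10 and the other 2 near 7. Leaving out single arrays gave 0 to 2 called, and only the omission of 3-week replicate 2 gave 2.

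Between genotypes, limma called 0 members in the controls, at 1 week and at 3 weeks. All genes called were 0% in the controls and at 3 weeks, and at 1 week 0.494% higher and 0.0687% lower in the heterozygous rats. At an unadjusted p under 0.05 the members were 0, 39 and 2, against 738, 2021 and 931 of all 16007 genes, and no setting tried gave a called member. At 1 week the member median was 0.49 higher in heterozygous than wild-type cortex, with 87 of 94 above 0 (0.58 and 0.25 within the slides). Without replicate 3 of the wild-type 1-week group it was 0.23. Atp5po, for example, had 7.28, 7.34 and 7.38 in heterozygous and 6.81, 6.90 and 6.06 in wild-type rats at 1 week, with no overlap and a difference of 0.74 ± 0.24 (SE, adjusted p = 0.19). In the controls the median was -0.21, but 0.34 with normexp (offset 50). The test of the difference in response, the interaction, called 0 members at 1 week and at 3 weeks (0% of all genes called at both times). At an unadjusted p under 0.05 there were 26 and 1 members, against 1218 and 759 of all 16007 genes. At 1 week the median interaction was 0.66 and 90 of 94 members were above 0. It was 0.23 with normexp (offset 50), with 15 members below 0, and 0.44 without replicate 3 of the wild-type 1-week group. The largest were Cox6c-ps1 at 1.61 ± 0.50 (SE, adjusted p = 0.42) and Uqcr10 at 1.23 ± 0.44 (SE, adjusted p = 0.51), and Atp5pb had 1.10 ± 0.35 (SE, adjusted p = 0.43). So the larger number of calls in the wild type does not show a difference in response between genotypes.

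Other genes of the pathway were counted from lists written from general knowledge. All 13 subunits carried by mitochondrial DNA were tested, and 11, 2, 3 and 6 fell in wild-type rats at 1 and 3 weeks and in heterozygous rats at 1 and 3 weeks, with medians of -1.11, -0.61, -0.83 and -0.80. The shares of all genes called lower were 14.3%, 5.52%, 3.2% and 6.52% in that order. ATP8, a membrane subunit of complex V, was called lower in all 4: it had 10.41 and 10.47 in wild-type controls and 8.76, 9.28 and 9.23 at 1 week, and 11.05 and 10.61 in heterozygous controls and 9.72, 8.97 and 8.95 at 3 weeks. The groups did not overlap in either genotype, with -1.35 ± 0.31 (SE, adjusted p = 0.0052) and -1.62 ± 0.31 (SE, adjusted p = 0.0038). ATP6 and ND4L, subunits of the complex V membrane part and of complex I, had the smallest p in the wild type at 1 week (-1.03 ± 0.22 (SE, adjusted p = 0.003) and -1.22 ± 0.26 (SE, adjusted p = 0.003)). On the wild-type 1-week arrays the median deviation of the 13 genes from their mean over all arrays was -0.62, -0.36 and -0.42 for replicates 1 to 3, and that of the members -0.27, -0.37 and -1.06.

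Of the 17 genes of the citric acid cycle and pyruvate dehydrogenase, 8, 2, 0 and 1 fell in the same order of comparisons. For the lists in this paragraph, the shares of all genes called lower were 14.3%, 5.52%, 3.2% and 6.52% in that order. Idh3g, a subunit of NAD-dependent isocitrate dehydrogenase, had -1.63 ± 0.31 (SE, adjusted p = 0.0015) at 1 week in the wild type. Of 71 mitochondrial ribosome genes tested, 21, 6, 0 and 1 fell, led by Mrpl15 (-1.47 ± 0.28 (SE, adjusted p = 0.0012)) and Mrpl30 (-1.47 ± 0.31 (SE, adjusted p = 0.0027)). Of 31 assembly factors outside the member rule, 8 fell at 1 week in the wild type; Cox16, which helps build complex IV, had 1.78 and 2.00 in controls and -0.50, -0.34 and -1.21 at 1 week (-2.57 ± 0.27 (SE, adjusted p = 1.5e-05)), and Coa5 had -1.31 ± 0.23 (SE, adjusted p = 0.00078). Cox16 was called lower in all 4 treatment comparisons. Its -1.21 on wild-type 1-week replicate 3 lay below the lowest signal well above background on that array (-1.05), so its size at 1 week rests partly on a dim signal.

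For the next lists, all at 1 week in the wild type, the shares of all genes were 14.3% called lower and 12.8% higher. Of 16 import and membrane proteins 4 fell and 1 rose at 1 week in the wild type, among them the outer-membrane channel Vdac1 (-1.19 ± 0.26 (SE, adjusted p = 0.0032)) and the import receptor Tomm20 (-0.71 ± 0.22 (SE, adjusted p = 0.026)). Of 18 glycolysis genes 2 fell and 4 rose, with a median of 0.13. Pkm, a pyruvate kinase, rose with 2.65 ± 0.31 (SE, adjusted p = 3.5e-05) and Pfkp, a phosphofructokinase, with 2.07 ± 0.30 (SE, adjusted p = 0.00019). Of 13 regulators of mitochondrial genes 4 fell and 1 rose. Ppara, a receptor that drives fatty acid oxidation genes, was called lower, but its probe was not well above background on any 1-week wild-type array, so no size is given. Pprc1, a coactivator, was called higher, but was not well above background on any wild-type control array and was so on only 2 of the 1-week arrays. The call rests on control signals below background, so no size is given for it either.

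Markers of the proximal tubule moved with the members. Of its 14 markers, 13 were called lower in the wild type at 1 week, against 14.3% of all genes, with a median of -3.58. The summed linear level, relative to the 75th percentile of each array, went from 2681 to 3357 in controls to 183 to 411. At 3 weeks the sum was 1143 to 1735, with 10 of 14 called higher than at 1 week, against 5.54% of all genes. In heterozygous rats it was 2031 to 2930 in controls, 532 to 1089 at 1 week and 692 to 1619 at 3 weeks. There 4 markers were called lower at each time, against 3.2% and 6.52% of all genes. Slc22a6, an organic anion transporter, had -4.99 ± 0.53 (SE, adjusted p = 1.7e-05) at 1 week in the wild type. For the thick limb and distal tubule at 1 week in the wild type, 3 of 9 markers were called lower and the sum went from 540 to 809 in controls to 207 to 430. Macrophage markers rose in 6 of 7 and fibroblast markers in 3 of 5 there, against 12.8% of all genes called higher. Of 9 erythroid markers 7 fell, and their summed level was 362 to 2367 in wild-type controls and 66.4 to 248 at 1 week. Endothelial markers summed to 43.7 to 52.7 in wild-type controls, 22.9 to 25.3 at 1 week and 28.6 to 35.5 at 3 weeks. Podocyte markers summed to 28.3 to 36.2 in wild-type controls and 17.3 to 27.4 at 1 week. Collecting duct sums overlapped, at 220 to 239 and 184 to 246. The part of these shifts in the results on the members was not tested.

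**Figure D5:**
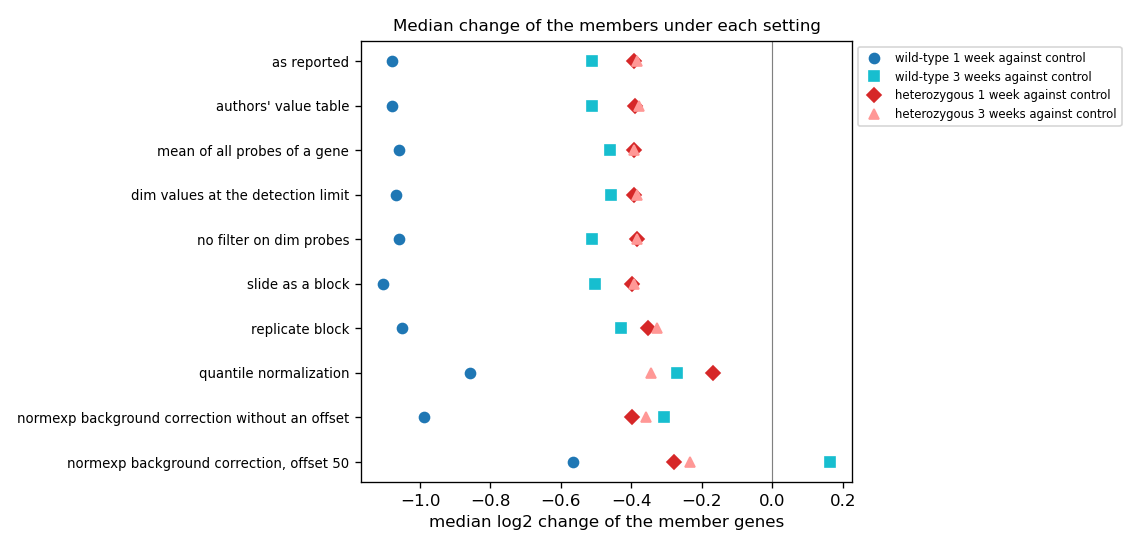
Median log2 change of the members under each processing setting (rows) for the 4 treatment comparisons (symbols); the line marks 0. All medians are below 0 except that of the wild type at 3 weeks under normexp with an offset of 50, at 0.16; the wild type at 1 week has the lowest median in every row.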

How the data were processed

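Per the file headers, the deposited scanner files (Agilent Feature Extraction 10.7) give each spot's intensity as a processed signal, with background subtracted and substitute values for dim spots, not scaled between arrays. The authors' table of log2 values served as an alternative. From 62976 spots an array, 4259 control spots and outlier spots were left out, and spots of a probe averaged (45598 probes). The log2 processed signal was scaled to each array's 75th percentile. Probes well above background on all arrays of at least 1 group were kept (20431), and the brightest stood for its gene. The test was limma's (version 3.58.1, under R 4.3.3; lmFit and eBayes), with 6 group means, 10 residual degrees of freedom, two-sided, with Benjamini-Hochberg adjustment over 16007 genes; the script was tested on simulated data. The number of arrays limits precision. Members and lists were chosen with earlier results of these data known. Named genes are, per complex, the 3 largest and 2 smallest differences in the wild type at 1 week, isoform sets, members called higher or with probes of opposite sign, and 2 of each list; others were picked after their values were seen. A gene of the citric acid cycle list that the rule names is not reported here. Complexes are compared by counts and medians, without a test.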

Additional observations from a re-analysis of the deposited data

Results flagged for a closer look

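Ndufs7, a core iron-sulfur subunit of complex I, had uncalled differences of opposite sign in the genotypes after 3 weeks. On the wild-type arrays it was 5.09 and 5.24 in controls and 5.25, 5.40 and 5.38 at 3 weeks, and in the heterozygous rats 5.42 and 5.28 in controls and 4.73, 5.16 and 4.82 at 3 weeks. All 3 treated wild-type arrays were above both controls (difference 0.18), the lowest at 5.25 beside a control at 5.24. All 3 treated heterozygous arrays were below both of theirs (difference -0.45). At 3 weeks every treated array was above every control array for 28.2% of all genes in the wild type. In heterozygous rats every treated array was below every control array for 28.9%. Neither difference was called, and the interaction, which tests the contrast of the genotypes, was -0.63 ± 0.36 (SE, adjusted p = 0.98) in limma, not called. Ndufs7 was the 1 member of 94 with this pattern at either time, and the share of all genes with it was not counted.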

How the results depend on the processing

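Members called, 67, 13, 3 and 1 in the wild type at 1 and 3 weeks and in heterozygous rats at 1 and 3 weeks, and 14 for 3 weeks against 1 week in the wild type, depended on the setting as follows. Normexp with offset 50 (added to signals whose 75th percentile was as low as 20.1) gave 9, 1, 1 and 2; without an offset, a setting chosen after seeing the data, it gave 4 (wild type, 3 weeks), 3 (heterozygous, 3 weeks) and 22 (3 weeks against 1 week). Quantile normalization gave 7, 3 and 27 for these. All genes called lower and higher there were 689 and 1043, 1110 and 1533, and 431 and 838 without an offset. With quantile normalization they were 828 and 1564, 901 and 1515, and 547 and 925 of 16007. No filter on dim probes gave 42, 1, 1, 0 and 0 in the order above. All genes called there were 1376 and 1280, 312 and 658, 147 and 307, 373 and 695, and 196 and 275 of 34680. A fit of only the groups compared gave 9, 24, 1, 5 and 0. All-gene counts are not given here for that fit, nor for blocks, slides, the authors' values or left-out replicates. Dim values at the detection limit gave 9 (heterozygous, 3 weeks) and 25 (3 weeks against 1 week). For the 25, all genes called lower and higher were 496 and 747 of 16007. In heterozygous rats at 3 weeks the mean of all probes gave 10 and the authors' values gave 2. Within a slide few arrays remain (wild-type arrays 1, 2 and 2 by group on slide 1), and no decrease of a member was called there. The member median at 1 week in the wild type was -1.26 within slide 1 and -0.91 within slide 2. The slide as a block kept each treatment count within 1.5 times. With a replicate block the counts were 56, 6, 2 and 2. Same-numbered arrays of different groups had residual correlations of -0.34 to 0.44 (median 0.03) and different numbers -0.50 to 0.38 (median -0.02). These ranges overlap and cannot settle whether the numbers pair the samples. Leaving out single replicates gave 31 to 71, 0 to 5, 0 to 3 and 0 to 2, and 0 to 30 for 3 weeks against 1 week. Counts between genotypes and for both interactions were 0 in every setting. Complex medians in the wild type at 1 week (I to V and assembly factors) were -0.59, -0.78, -0.54, -0.53, -0.67 and -0.16 with normexp, and -0.76, -0.77 and -0.90 for III, IV and V with quantile normalization. At 3 weeks they were 0.19, 0.24, 0.17, 0.35, 0.071 and -0.15 with normexp, -0.27 and -0.32 for III and V with quantile normalization, and -0.36 for III without an offset. In heterozygous rats at 1 week quantile normalization gave -0.24, -0.049 and -0.15 for I, IV and V, and the mean of all probes -0.56 for III. Leaving out replicates moved the 1-week wild-type medians of II, IV and the assembly factors within -1.54 to -1.01, -1.20 to -0.70 and -0.84 to -0.35. The cause of these shifts was not tested. Among called named genes no difference changed sign; 309 of their values stayed called and 116 did not at 1 week in the wild type, 57 and 96 at 3 weeks, and 29 and 22, then 9 and 8, in heterozygous rats at 1 and 3 weeks.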
